A study of Homo sapiens with 4 samples.

Results

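Small nuclear RNAs (snRNAs), the RNA cores of the spliceosome, were examined in small extracellular vesicles, particles enclosed by a membrane that cells release. Members were chosen by annotation type and by their counts: every feature (an annotated RNA with a row of counts) typed as snRNA was taken that had at least 1 count summed over the 4 libraries. There were 48 members, of 102 snRNA features in a table of 155642 features, of which 46090 of any type had a count. At the edge of this rule, 7 members had exactly 1 count, and the 54 snRNA features outside it had 0. Members were placed by the GENCODE 29 gene at the locus, or by RefSeq for RNVU1-8. GENCODE gives a copy without a symbol the name of its RNA family. The members were 18 U1, 7 U2, 6 U4, 4 U5 and 11 U6 features and 2 of the minor spliceosome. Other snRNAs had no member.

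The vesicles came from cells of the established human line HT29, from a colon cancer, at passages 5 to 15. In 2 libraries the cells carried a non-targeting shRNA (control), and in 2 they carried an shRNA against p53, the transcription factor known as a tumour suppressor. Total RNA of the vesicles was made into small RNA libraries with inserts of 18 to 40 nt, so counts on the longer snRNAs are of fragments, and the level of the intact RNA was not measured. Nothing in the labels states that replicate libraries are from different cultures, and a p-value therefore reflects the spread among these samples alone, which may be technical.

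In the major spliceosome, U1 recognises the 5′ splice site by base pairing and U2 pairs with the branch point. U4, U5 and U6 arrive together. U6 then takes over the pairing with the 5′ splice site, while a loop of U5 holds the exons for joining. A minor spliceosome with U11, U12, U4atac and U6atac removes a rare class of introns. Each major snRNA is encoded by several genes of near-identical sequence and by many diverged copies, and spliceosomes act in the nucleus.

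The U1 genes carried most of the counts, and their sequences show how closely the copies resemble each other. The first sequence is RNU1-1, from GENCODE 29 (GRCh38), with the bases that pair with the 5′ splice site in capitals. The same sequence stands at 6 loci that the table counts as 1 feature: RNU1-1, RNU1-2, RNU1-3, RNU1-4, RNVU1-18 and a locus without a symbol. In the copies below it, each a feature of 1 locus, capitals mark substitutions and inserted bases relative to RNU1-1.
RNU1-1: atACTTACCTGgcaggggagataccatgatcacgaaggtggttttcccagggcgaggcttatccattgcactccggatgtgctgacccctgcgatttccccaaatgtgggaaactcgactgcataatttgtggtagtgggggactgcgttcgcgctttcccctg
RNVU1-28: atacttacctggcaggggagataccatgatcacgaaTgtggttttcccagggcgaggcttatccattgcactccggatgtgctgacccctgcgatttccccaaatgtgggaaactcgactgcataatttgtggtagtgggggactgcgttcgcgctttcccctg
RNVU1-31: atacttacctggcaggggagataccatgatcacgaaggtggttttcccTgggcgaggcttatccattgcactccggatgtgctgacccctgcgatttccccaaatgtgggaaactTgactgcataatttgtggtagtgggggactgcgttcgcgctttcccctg
RNVU1-7: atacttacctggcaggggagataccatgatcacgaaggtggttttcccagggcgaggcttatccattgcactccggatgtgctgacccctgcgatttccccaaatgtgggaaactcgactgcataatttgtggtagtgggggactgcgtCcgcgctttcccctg
RNVU1-1: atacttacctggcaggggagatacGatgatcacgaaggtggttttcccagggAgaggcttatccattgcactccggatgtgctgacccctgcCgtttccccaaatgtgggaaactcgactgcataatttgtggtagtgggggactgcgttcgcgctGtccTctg
RNVU1-17: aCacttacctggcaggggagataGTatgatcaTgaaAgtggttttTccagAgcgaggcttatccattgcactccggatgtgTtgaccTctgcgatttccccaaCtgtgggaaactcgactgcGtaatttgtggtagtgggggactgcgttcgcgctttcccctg
RNVU1-15: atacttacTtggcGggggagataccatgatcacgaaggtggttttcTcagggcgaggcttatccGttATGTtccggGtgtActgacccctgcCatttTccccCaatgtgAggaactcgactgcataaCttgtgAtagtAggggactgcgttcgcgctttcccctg
Positions are counted from 1 at the 5′ end of RNU1-1. RNVU1-28 differed only by G37T, RNVU1-7 only by T150C, and RNVU1-31 by A49T and C116T. RNVU1-1 had 4 substitutions (C25G, C53A, T157G and C161T), with 1 inserted and 1 deleted base, RNVU1-17 had 11 substitutions, and RNVU1-15 had 15, with 2 inserted bases and 1 deleted. RNU1-1 lies at chr1:16514122-16514285, in no other annotated gene, and the copies printed lie at chr1:143699456-143699619 (RNVU1-17), chr1:144412576-144412740 (RNVU1-15), chr1:144560666-144560829 (RNVU1-28), chr1:145465617-145465780 (RNVU1-31), chr1:148038753-148038916 (RNVU1-7) and chr1:148362370-148362533 (RNVU1-1). RNVU1-1 lies in an intron of the non-coding gene LINC01138, and the other 5 in no other annotated gene.

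The pairing sequences searched were ACTTACCTG for U1, GTAGTA for U2 and ACAGAGA for U6, on the RNA strand only, because the features are RNAs. ACTTACCTG was found in 9 of the 17 U1 members with a sequence and in 0 of 78 snRNA features of other families. Of the 9 U1 members with a sequence and at least 100 counts, 7 held it, and RNVU1-15 and RNVU1-2A did not. GTAGTA was found in 6 of 7 U2 members and in 5 of 90 features of other families. ACAGAGA was found in 7 of 11 U6 members and in 0 of 67 others. Among snRNA features without a count, ACTTACCTG was in 4 of 5 of U1, GTAGTA in 2 of 3 of U2 and ACAGAGA in 6 of 22 of U6. A match describes the letters and not the activity of a copy.

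The control libraries had 1099694 (replicate 1) and 938754 counts (replicate 2), and the p53 shRNA libraries 2611032 and 1940942. Ribosomal features (13 features with at least 50% of their length on RefSeq ribosomal RNA genes) held 53.2% to 59.9% of them. No level of a mature miRNA was used to check the cell type, and hairpin markers were near 0: of 9 intestinal epithelial hairpin genes, 2 had a count, and the list summed to 1, 0, 1 and 2 counts in the 4 libraries. Of 6 blood cell hairpin genes, 1 had a count (0, 2, 0 and 0), and of 5 fibroblast hairpin genes, 0 had one. The markers therefore do not tell whether the vesicles came from the labelled cells. The controls were unlike each other: replicate 1 had the smallest TMM factor (a scaling for library composition), 0.637 beside 1.12 in replicate 2, and replicate 2 stood apart in the makeup of U1.

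Overlap with other features went with the presence of counts. All 48 members had bases that no other feature covers, with strand ignored. Of the 54 snRNA features at 0, 17 had no such base. Among these 17 were RNU4-1 and RNU4-2, the main U4 genes, RNU11 and RNU12 of the minor spliceosome, RNU7-1, the histone-processing U7 gene, the 7SK gene RN7SK and RNU5E-1. Whether strand was used in counting is not given in the sources, and with strand RNU7-1 would have 63 bases of its own. No level is given here for those RNAs, and their 0 is not read as absence. The other 37 features at 0 had bases of their own.

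Members differed widely in abundance. There were 14 with at least 100 counts over the 4 libraries, 18 with 10 to 99 and 16 with fewer than 10, and 28 had a count in all 4 libraries. The snRNAs together held 77455 and 40138 counts in control vesicles, against 104867 and 58426 with p53 shRNA. As a share of all counts this was 7.04% and 4.28% against 4.02% and 3.01%, so the groups did not overlap, with little between control replicate 2 and p53 shRNA replicate 1. In RNA from bulk vesicles, fewer vesicles with an RNA and less of it per vesicle cannot be told apart. The 95% Wilson interval of the share was 4.23% to 4.32% in control replicate 2 and 3.99% to 4.04% in p53 shRNA replicate 1. Intervals cover counting error only, since reads without molecular identifiers are not independent molecules. Outside ribosomal features the shares were 16.6% and 9.73% against 10.01% and 6.43%, and the groups overlapped.

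U1 made up 91.8% and 82.3% of snRNA counts in control vesicles against 86.7% and 91.4% with p53 shRNA. U2 made up 7.86% and 17.3% against 11.6% and 6.56%. Both families overlapped between the groups. There were 11.7 and 4.76 U1 counts per U2 count in control vesicles against 7.50 and 13.9 with p53 shRNA. U6 made up only 0.0581% and 0.110% against 0.0906% and 0.0582%, which rests on 34 to 95 counts per library.

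With families taken from these gene names, U5 was the major family whose share of snRNA counts separated the groups. It was 0.298% and 0.329% in control vesicles against 1.599% and 1.92% with p53 shRNA, means of 0.314% ± 0.0217 and 1.76% ± 0.226 (SD, n = 2), a ratio of 5.61. The Wilson intervals were 0.262% to 0.339% and 0.277% to 0.390% for the controls, and 1.53% to 1.68% and 1.81% to 2.03% with p53 shRNA. Against U1 alone, U5 had 3.25 and 3.998 counts per 1000 U1 counts in control vesicles against 18.4 and 21.0 with p53 shRNA. Against U2, it had 38.0 and 19.0 counts per 1000 U2 counts in control vesicles against 138 and 293 with p53 shRNA. As a share of all counts U5 held 0.0210% and 0.0141% against 0.0642% and 0.0578%, a ratio of 3.48. On that scale U1, U2 and U6 separated the groups too, all lower with p53 shRNA. U1 was at 6.46% and 3.52% against 3.48% and 2.75%, and U2 at 0.553% and 0.739% against 0.465% and 0.197%. U6 was at 0.00409% and 0.00469% against 0.00364% and 0.00175%. Leaving out any library kept the difference in share of snRNA counts between 1.29 and 1.605 percentage points. These sums over genes were described and not tested. With copies placed by the closest reference sequence instead, which moves U2 copy D to U4, the few U4 counts also separated the groups (0.00516% and 0.0125% against 0.0191% and 0.0599%). That placement counts missing bases as differences. Copy D has 4 substitutions and 96 deleted bases against RNU2-1, and it holds GTAGTA, so its move to U4 is uncertain.

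**Figure D1:**
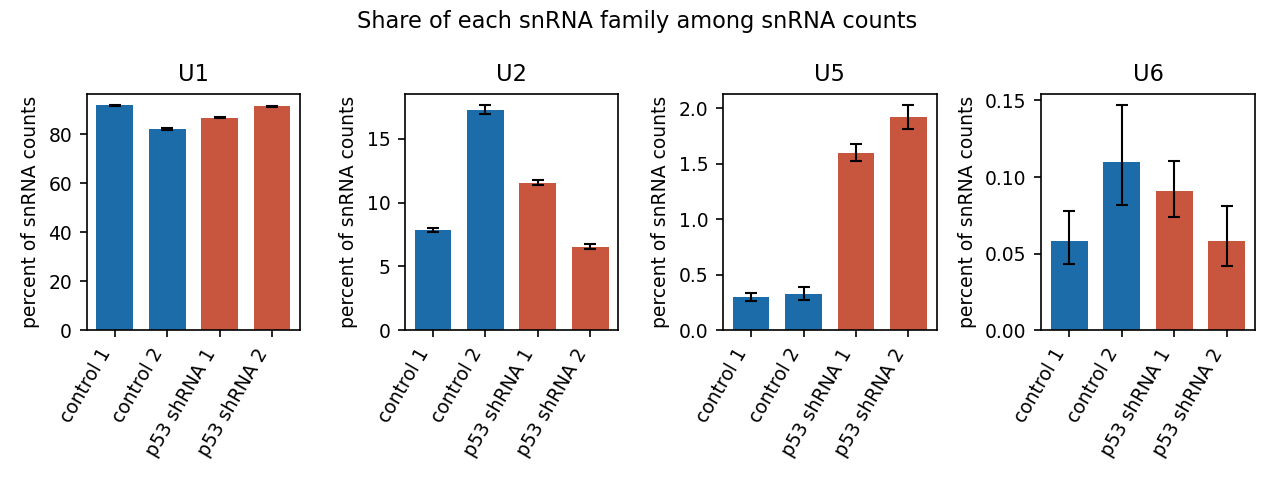
Share of each family (vertical axes, percent of snRNA counts, each panel on its own scale from 0) in the 4 libraries; bars are single libraries, blue control and red p53 shRNA, and error bars are 95% Wilson intervals. U5 is at 0.298% and 0.329% in control vesicles against 1.599% and 1.92% with p53 shRNA, while the groups overlap for U1, U2 and U6.

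For single features the test was edgeR's quasi-likelihood test over 2780 features, in CPM (counts after scaling for depth and, by TMM, for library composition), with Benjamini-Hochberg adjustment at 0.05. Of the 48 members, 18 passed the filter on low counts: 10 U1, 4 U2, 2 U5 and 2 U6 features. No feature of any type passed the adjusted threshold (0% in each direction). At an unadjusted p under 0.05, 4.35% of all features were higher and 7.81% were lower with p53 shRNA, and 0 of the 18 snRNA features were in either set. The DESeq2 Wald test called 0.036% of features higher and 1.29% lower, and 0 snRNA features. The adjusted p of the 18 features ran from 0.438 to 0.979.

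Of the 18 tested, 15 had a negative and 3 a positive log2 change, with a median of -1.20 beside 0.05 over all features tested. A feature could reach the filter through the group in which it is abundant, so these counts describe the tested features and not all members. The CPM of the groups did not overlap for 8 features that were lower and 2 that were higher with p53 shRNA, and overlapped for 8. Over all features tested, 18.6% were lower and 22.9% higher without overlap. The 8 lower features include RNVU1-28 and RNVU1-7, each 1 base from RNU1-1, and U2 copies A and B, each 1 base from RNU2-1. RNU1-1 and RNU2-1 are among the 8 too. Reads in shared sequence can be divided among such copies, so these features are not separate observations. Without the low-count filter, the same 18 features had 11 negative and 7 positive changes, with a median of -0.18 beside 1.38 over all 46090 features. Scaling to library totals shifted the median of all features to 0.49 and that of the snRNA features to -0.45, with 14 negative. Without control replicate 1, the snRNA median was -0.39, with 13 negative, beside 0.18 over all features.

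**Figure D2:**
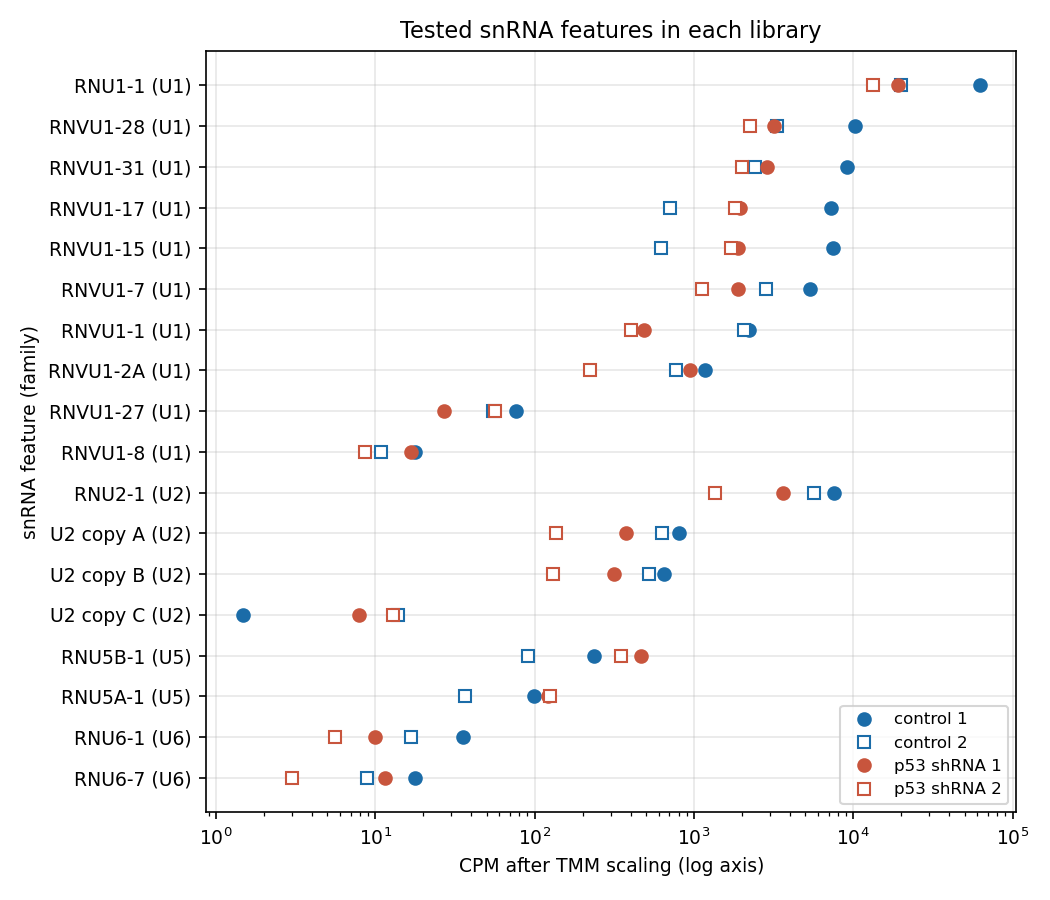
CPM after TMM scaling (horizontal log axis) of the 18 tested snRNA features (vertical axis, family in parentheses); each point is 1 library, blue control, red p53 shRNA, circles replicate 1 and open squares replicate 2. Control replicate 1 is the highest library for all 10 U1 features, and both p53 shRNA libraries lie to the right of both controls for RNU5B-1 and RNU5A-1.

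The 6-locus U1 feature was the most abundant snRNA. It had 42069 and 20113 control counts against 53721 and 31023 with p53 shRNA, or 62054 and 19922 against 19193 and 13303 CPM. The controls were higher without overlap, but control replicate 2 and p53 shRNA replicate 1 were nearly level and the spread came from control replicate 1. The log2 change was -1.33 (SE 0.86, adjusted p = 0.599, edgeR), and -0.34 without control replicate 1.

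RNVU1-1, a U1 variant gene, had the most negative log2 change and the smallest adjusted p of the tested snRNAs. It had 2216 and 2047 CPM in control vesicles against 486 and 403 with p53 shRNA, from 1502, 2067, 1360 and 940 counts. The log2 change was -2.26 (SE 0.15), with both p53 shRNA libraries lower than both controls, and it ran from -2.36 to -2.13 over the fits that left out 1 library. On library totals per kilobase the controls lay further apart, at 8328 and 13426 against 3176 and 2953 with p53 shRNA. The small SE thus holds for the TMM scale. The log2 change was -1.81 with library totals and -1.46 with no low-count filter. It did not pass the adjusted threshold (adjusted p = 0.438, edgeR; 0.252 to 0.998 over the alternatives).

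Beside the 6-locus feature and RNVU1-1, RNVU1-28 and RNVU1-7 were the U1 features that stood lower without overlap. RNVU1-28 had 10290 and 3335 CPM in the controls against 3175 and 2244, and RNVU1-7 had 5310 and 2818 against 1877 and 1119. Their log2 changes were -1.33 (SE 0.85) and -1.44 (SE 0.59), and -0.34 and -0.95 without control replicate 1. RNVU1-31, RNVU1-17, RNVU1-15, RNVU1-2A, RNVU1-27 and RNVU1-8 overlapped between the groups. RNVU1-17 (7207 and 705 against 1950 and 1816 CPM) and RNVU1-15 (7418 and 623 against 1889 and 1705) had the controls on either side of both p53 shRNA libraries. Their log2 changes of -1.07 (SE 1.68) and -1.16 (SE 1.79) became 1.36 and 1.48 without control replicate 1. The limma voom fit, which works on log2 CPM as the SE does, gave -0.24 for both.

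Among U2 features, the RNU2-1 feature stands at 11 loci of a tandem array on chromosome 17 (first locus chr17:43233787-43233977, last chr17:43300041-43300231), in an intron of CCDC200. It had 7524 and 5703 CPM in control vesicles against 3630 and 1356 with p53 shRNA, a log2 change of -1.41 (SE 0.74, adjusted p = 0.637, edgeR). The change was -2.23 without p53 shRNA replicate 1 and -0.87 without p53 shRNA replicate 2. Copies A (chr17:43290291-43290481) and B (chr17:43273101-43273292) of the same array had 802 and 629 against 374 and 136 CPM, and 646 and 523 against 314 and 130. All of these had both p53 shRNA libraries below both controls. Copy C, a diverged U2 copy at chr1:120571120-120571264, had 1, 14, 22 and 30 counts, and its groups overlapped. Its log2 change of 0.36 (SE 1.29) was -0.49 without control replicate 1 and -0.02 without p53 shRNA replicate 2.

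Both tested U5 genes were higher with p53 shRNA without overlap. RNU5B-1 had 159 and 92 counts in control vesicles against 1307 and 814 with p53 shRNA, or 235 and 91.1 against 467 and 349 CPM. Its log2 change was 1.33 (SE 0.71, adjusted p = 0.708, edgeR), between 0.80 and 2.12 with any library left out. RNU5A-1 had 67 and 37 against 339 and 290 counts, with a log2 change of 0.86 (SE 0.70, adjusted p = 0.812, edgeR), between 0.31 and 1.69 with any library left out. With no low-count filter the changes were 2.25 for RNU5B-1 and 1.79 for RNU5A-1. Both stayed positive under all 11 alternatives run, and neither passed the adjusted threshold in any of them. There were 2.37 and 2.49 counts of RNU5B-1 per count of RNU5A-1 in control vesicles, against 3.86 and 2.81 with p53 shRNA. The variant genes RNU5D-1 (2, 1, 21 and 5 counts) and RNU5F-1 (3, 2, 10 and 12) were too rare to test. In CPM on library totals per kilobase of own sequence RNU5D-1 was at 15.7 and 9.18 against 69.3 and 22.2, and RNU5F-1 at 23.3 and 18.2 against 32.7 and 52.8, so that all 4 counted U5 genes had both p53 shRNA libraries above both controls. On this scale 19.9% of all features with a count were higher and 7.97% lower without overlap. The values of RNU5D-1 and RNU5F-1 rest on few counts. Of the other untested members, U2 copies D, E and F, U4 copy A, RNU1-154P, RNVU1-26 and U1 copy A were also higher without overlap. U6 copy E was lower, and the rest overlapped, so this was not particular to rare U5 genes.

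Of U6, the 3-locus feature RNU6-1 (chr15:67839939-67840045, with RNU6-9 and RNU6-2 elsewhere) had 35.4 and 16.8 CPM in control vesicles against 10.003 and 5.57 with p53 shRNA, from 24, 17, 28 and 13 counts. The log2 change was -1.72 (SE 0.63, adjusted p = 0.494, edgeR), and -1.14 without control replicate 1. The 2-locus feature RNU6-7 (with RNU6-8), which differs from RNU6-1 only at its last base, had 12, 9, 32 and 7 counts and overlapped between the groups.

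**Figure D3:**
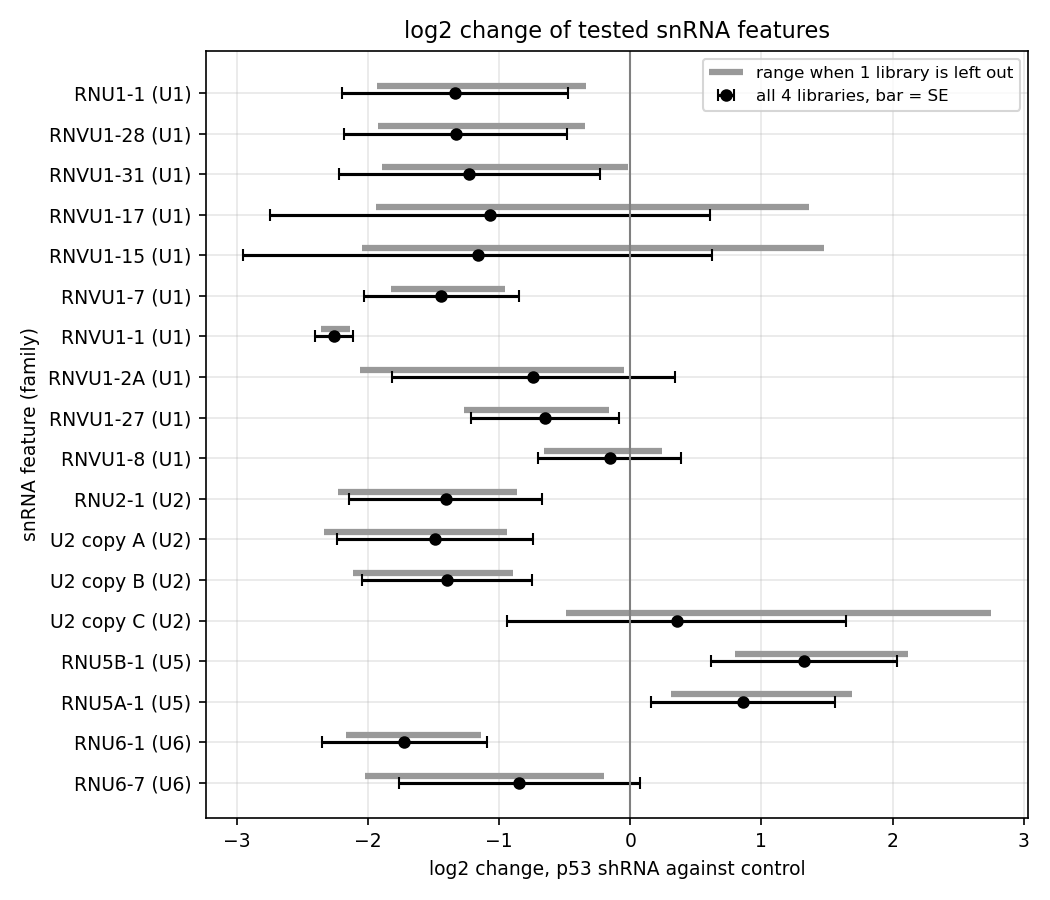
log2 change of CPM, p53 shRNA against control (horizontal axis), for the 18 tested snRNA features (vertical axis). Points are edgeR's estimate from all 4 libraries, and grey bars the range when 1 library is left out. Black bars are the SE of the difference in mean log2 CPM. RNVU1-1 has the shortest grey bar, from -2.36 to -2.13, RNU5B-1 and RNU5A-1 lie above 0 throughout, and RNVU1-17 and RNVU1-15 cross 0.

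The 30 untested members held 30 and 41 counts in control vesicles against 232 and 111 with p53 shRNA. These are not scaled for depth, and the p53 shRNA libraries were deeper (2611032 and 1940942 counts in all against 1099694 and 938754). For U4, only 6 diverged copies had counts, 32 in all, at 55.3% to 69.5% identity to RNU4-1. The most abundant, in an exon of PTMA on the same strand (chr2:231711525-231711647), had 0, 1, 3 and 11 counts. Reads of PTMA itself cannot be told apart from reads of this copy. For the minor spliceosome, RNU6ATAC had 0, 2, 2 and 6 counts and RNU4ATAC 0, 1, 2 and 6. In control replicate 1 the 0 of 77455 snRNA counts allows a share of up to 0.00387% for either gene.

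Levels were set side by side as CPM on library totals per kilobase of own sequence, where the length of a multi-locus feature is that of all its loci, so the value is a mean per locus. The 6-locus U1 feature was at 30827 ± 12294 in control vesicles against 18883 ± 3354 with p53 shRNA (SD, n = 2), RNU2-1 at 2564 ± 503 and 1314 ± 761, RNU5B-1 at 1046 ± 284 and 3965 ± 495, RNU5A-1 at 432 ± 131 and 1204 ± 119, and RNU6-1 at 62.2 ± 8.18 and 27.1 ± 8.87. Per locus, in the controls RNU2-1 was above RNU5B-1 in both libraries (2208 and 2919 against 1246 and 845), and with p53 shRNA RNU5B-1 was above RNU2-1 in both (4315 and 3615 against 1852 and 775). This order holds only per locus: summed over its 11 loci, RNU2-1 had more counts than RNU5B-1 in all 4 libraries, with 10161 and 3162 against 1307 and 814 with p53 shRNA. U1 was the highest family and U6 the lowest of these in every library.

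The 4 multi-locus members held 60.9% and 64.5% of snRNA counts in control vesicles against 61.0% and 58.5% with p53 shRNA, and the 44 single-locus members held the rest. The groups overlapped. A multi-locus feature sums its loci, so each single-locus copy was compared with the count of the multi-locus feature of its family divided by its number of loci. RNVU1-28 had 0.995, 1.004, 0.993 and 1.01 times the counts of 1 locus of the 6-locus U1 feature in control replicates 1 and 2 and p53 shRNA replicates 1 and 2. These ratios differed from 1 by less than counting error in each library. Copies A and B of U2 were at 1.11 to 1.21 and 0.945 to 1.06 of 1 locus of RNU2-1. Counts of these near-identical copies are therefore uncertain as levels of single genes, since reads in shared sequence can be divided among the copies.

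The other U1 copies had lower ratios. RNVU1-31 was at 0.878, 0.723, 0.904 and 0.907 in the same library order, RNVU1-17 at 0.697, 0.212, 0.609 and 0.819, and RNVU1-15 at 0.717, 0.188, 0.591 and 0.769. RNVU1-7, with its 1 substitution near the 3′ end, was at 0.513, 0.849, 0.587 and 0.505. RNVU1-1 was at 0.214, 0.617, 0.152 and 0.182, and RNVU1-2A at 0.113, 0.234, 0.295 and 0.101. The 10 remaining U1 copies, RNVU1-27 and RNVU1-8 among them, were at 0.0253 or less.

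Copies with fewer substitutions tended to have higher ratios, though not in every pair. RNVU1-15, with 15 substitutions, was above RNVU1-7, with 1, in 3 of 4 libraries, by less than counting error in p53 shRNA replicate 1, although the printed sequences show many more capitals in it. The bases shared with RNU1-1 without a break at the 3′ end were 127 in RNVU1-28, 48 in RNVU1-31, 41 in RNVU1-17 and 26 in RNVU1-15, against 14 in RNVU1-7, 11 in RNVU1-27, 5 in RNVU1-2A and 3 in RNVU1-1. Over the 16 single-locus U1 copies with a sequence, Spearman's rho between this length and the ratio was 0.849 to 0.930 in the 4 libraries. It was 0.848 to 0.940 for the longest shared stretch anywhere and 0.478 to 0.553 for the stretch shared at the 5′ end, and -0.877 to -0.747 for the number of substitutions. The copies share sequence with each other and their library, so these are descriptions, and the measures were chosen after the values were seen. Read positions are not in the files used here, so where in U1 the fragments lie was not tested.

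Control replicate 2 stood apart in the makeup of U1. RNVU1-31, RNVU1-17 and RNVU1-15, which share 48, 41 and 26 bases at the 3′ end with RNU1-1, had their lowest ratios there. RNVU1-7 and RNVU1-1, which share 14 and 3, had their highest. The other copies with at least 100 counts did not follow this split. RNVU1-28, with the longest shared 3′ end and only G37T between it and RNU1-1, was level in all libraries. RNVU1-2A was highest in p53 shRNA replicate 1 and RNVU1-27 in p53 shRNA replicate 2. There were 1.36, 0.250, 1.04 and 1.62 counts of RNVU1-17 per count of RNVU1-7 in the 4 libraries. RNVU1-17 and RNVU1-15 kept to each other, with 1.03, 0.883, 0.969 and 0.939 counts of RNVU1-15 per count of RNVU1-17. Control replicate 2 was also the library with the largest U2 share, 17.3% of snRNA counts. The U1 differences between the groups given above compare p53 shRNA with these 2 unlike controls, and the part this has in them was not tested.

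**Figure D4:**
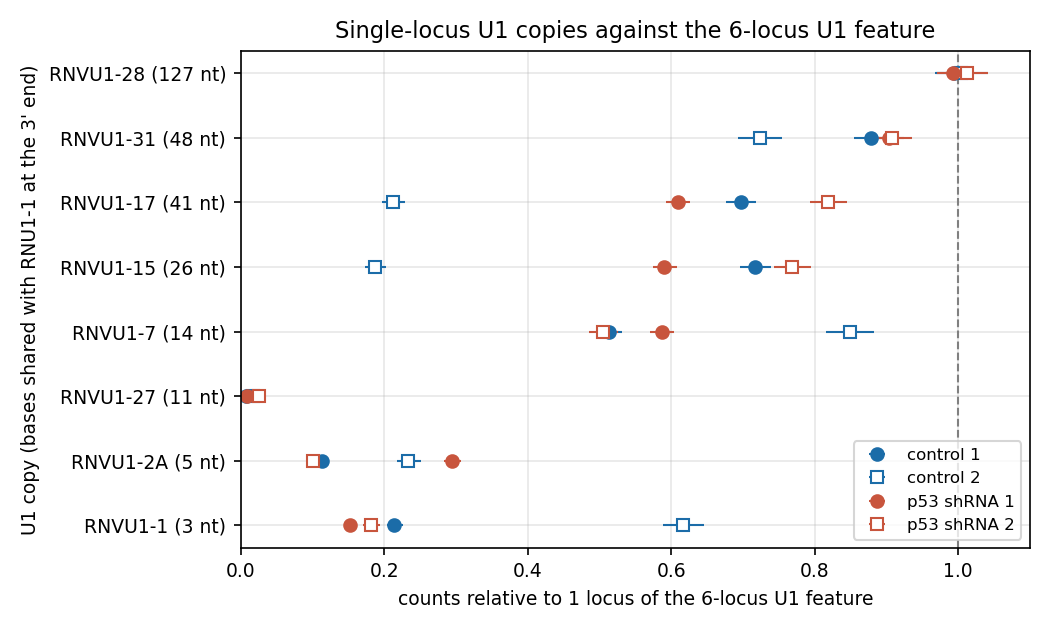
Counts of the 8 single-locus U1 copies with a sequence and at least 100 counts, relative to 1 locus of the 6-locus U1 feature (horizontal axis), ordered by the bases shared with RNU1-1 at the 3′ end (vertical axis, in parentheses); points are libraries and bars 95% intervals for counting error. RNVU1-28 sits at 1 in all 4 libraries. Control replicate 2 (open blue square) is lowest for RNVU1-31, RNVU1-17 and RNVU1-15 and highest for RNVU1-7 and RNVU1-1.

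Small Cajal body RNAs (scaRNAs) guide the modification of spliceosomal snRNAs. Of 29 scaRNA genes listed, 27 had a feature, 12 had a count and 7 features were tested, of which 0 passed the adjusted threshold and 1 was lower at an unadjusted p under 0.05 (edgeR), beside 7.81% of all features tested. Their median log2 change was -0.62, with 5 negative and 2 positive, beside 0.05 over all features tested. The listed genes of the major spliceosome had 7 features tested, 0 past the threshold, with a median of -1.33 and 5 negative. The list of 4 minor spliceosome genes had 2 with a count, and that of 2 other snRNA genes (U7 and 7SK) had 0, and none of these was tested.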

How the data were processed

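Small RNA of vesicles was counted in 4 libraries, 2 control and 2 p53 shRNA. The authors deposited whole-number counts per RNAcentral feature, not normalized. Per the submitters' processing notes, the tools were Subread 1.6.3, BWA 0.7.17 and bcl2fastq 2.19, with GRCh38. The sources used here do not give how reads over several features or loci were counted. No count column belonged to another sample. Features were named from GENCODE 29 exons covering at least 50% of their length.

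Counts were tested with edgeR 4.0.16 (R 4.3.3) after its low-count filter and TMM scaling, with Benjamini-Hochberg adjustment at 0.05. The test was also run on simulated counts, but with less spread than these data, so that run does not show how it behaves here. The SE is that of the difference between the groups' means of log2 CPM (prior count 2). The log2 change printed beside it is edgeR's estimate, which lay near the log2 ratio of the groups' mean CPM. The SE is therefore not that of the printed change, and the gap is widest where replicates are far apart. Alternatives were DESeq2 1.42.0, limma 3.58.1 voom, other scalings and filters, a replicate block, ribosomal features left out and each library left out. Features named are every tested snRNA feature, every multi-locus one and the most abundant of untested families. Other genes named were picked with their values in view. Members and lists were chosen with earlier results of these data known. The strength of the knockdown was not analysed here, and U5 sequences are not reported here. The library totals above, 938754 to 2611032 counts, set the precision. Shares have 95% Wilson intervals, and 0 counts allow up to 3 counts. Shares over members were described without a test.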

Additional observations from a re-analysis of the deposited data

How the results depend on the processing

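Of 198 log2 changes (18 snRNA features under 11 alternatives), 186 kept their direction and 12 changed sign, in 7 features, and 0 crossed the adjusted threshold. Without control replicate 1, the sign changed for RNVU1-17, RNVU1-15, U2 copy C and RNVU1-8 (0.19), and without p53 shRNA replicate 2 for U2 copy C (-0.02) and RNVU1-8. With no low-count filter, RNVU1-2A was at 0.10, RNVU1-27 at 0.19, RNU6-7 at 0.0075 and RNVU1-8 at 0.68. RNVU1-8 was at 0.34 with library totals and 0.015 without ribosomal features. With 1 library left out, the range was -1.94 to 1.36 for RNVU1-17, -2.05 to 1.48 for RNVU1-15, -0.66 to 0.24 for RNVU1-8 and -0.49 to 2.75 for U2 copy C. Features of any type past the adjusted threshold numbered 0 in edgeR, 37 in the DESeq2 Wald test and 20 without ribosomal features, and 0 with any library left out. No snRNA feature was among them. The cause of these differences was not tested. Replicate numbers are not said to pair libraries. Deviations of same-numbered libraries from their group means correlated across features with r = 0.395. With 2 libraries a group, both pairs give this same value by construction, so it does not show pairing. With the replicate number as a block, 103 features passed, of which 0 were snRNA.

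The difference in snRNA share, p53 shRNA minus control, was -2.15 percentage points of all counts, -4.96 outside ribosomal features, and -3.53 to -0.76 with 1 library left out. The same range was -2.71 to 6.81 for U1 as a share of snRNA counts (-2.71 without control replicate 2, -0.289 without p53 shRNA replicate 2), -8.22 to 1.20 for U2 (1.20 without control replicate 2), 1.29 to 1.605 for U5, -0.0352 to 0.0163 for U6 (0.0163 without control replicate 2, 0.00673 without p53 shRNA replicate 2), 0.000985 to 0.0356 for U4, 7.72e-05 to 0.0168 for the minor spliceosome and -4.76 to -1.19 for multi-locus features. With 2 libraries a group and a biological coefficient of variation of 0.672, only large differences could pass. U4, U6 and minor spliceosome values rest on few counts.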
